A study of Mus musculus with 9 samples.

Results

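The enzymes and carriers that take glucose to pyruvate, exchange pyruvate with lactate, and oxidise pyruvate in mitochondria were described in 9 single cells from the hypothalamic paraventricular nucleus of the mouse. The 38 genes were listed by symbol and not by their level, though with earlier results of these data known. All 38 have a row among the 23528 gene symbols of the table. They fall into 16 glycolysis genes, 9 lactate and pyruvate genes, and 13 genes of the tricarboxylic acid (TCA) cycle and the malate-aspartate shuttle. Of the 38 genes, 36 had at least 1 molecule in some cell, and Eno1 and Slc16a7 were listed at 0 in all 9.

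The cells came from C57Bl6/N mice aged 21 to 28 days, with no genotype, treatment or control group. The PVN region was cut out of slices 300 µm thick and dissociated with papain, single cells were trapped in the chambers of a Fluidigm C1 microfluidic device, and polyA RNA was counted as molecules per gene. All 9 cells carry the label secretagogin+, for a calcium-binding protein (gene Scgn) of certain hypothalamic neurons. The labels tie no cell to an animal. The 9 cells therefore count as 1 sample, no p-value was computed, and a difference between cells is set only against counting error.

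The 9 cells differed in depth and in content. Gene molecules per cell ran from 1021 in cell 1 and 3393 in cell 6 to 7160 to 13176 in cells 2, 3, 4, 7, 8 and 9, and to 26466 in cell 5. Scgn itself had 1, 11, 1, 3 and 1 molecules in cells 2, 3, 5, 8 and 9, and 0 in cells 1, 4, 6 and 7. Meg3, an RNA abundant in neurons, was found in all 9 cells, and the other 11 neuron markers listed summed to between 6.65 molecules per 10000 gene molecules in cell 4 and 79.7 in cell 5. In 4 cells at least 3 markers of another cell type had 2 or more molecules each. Cell 4 held 2376 molecules of blood markers and 118 of endothelial markers, and globin genes made up 30.3% of its gene molecules. Cell 5 held 483 molecules of oligodendrocyte markers, cell 7 held 54 of endothelial markers, and cell 8 held 91 of ependymal or tanycyte markers and 29 of astrocyte markers. The 6 microglial and 3 oligodendrocyte precursor markers were at 0 in all 9 cells. Values without cells 4, 5, 7 and 8 are given for the group medians and the TCA to glycolysis ratio. They are also given for most isoform shares and for the count of widely detected genes. Other pooled values include these cells.

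Glycolysis splits glucose into pyruvate in the cytosol and yields a little ATP and NADH. Lactate dehydrogenase interconverts pyruvate and lactate, while the mitochondrial pyruvate carrier and the pyruvate dehydrogenase complex deliver pyruvate to the TCA cycle as acetyl-CoA. The TCA cycle feeds electrons to the respiratory chain, and the malate-aspartate shuttle carries the reducing power of cytosolic NADH into mitochondria. In brain, neurons are known for high oxidative use of pyruvate, and glial cells are known to release lactate that neurons can take up.

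The start regions of the gene with the most molecules in each group are shown as its example. Each runs 5′ to 3′ on the gene's own strand, from 250 bases before to 50 bases after the annotated start, and was read from RefSeq on GRCm38.p6. Gapdh (chr6:125165724-125166023, minus strand), Ldhb (chr6:142507908-142508207, minus strand) and Mdh1 (chr11:21571885-21572184, minus strand) follow. Capitals mark matches to ACGTG on either strand.
Gapdh: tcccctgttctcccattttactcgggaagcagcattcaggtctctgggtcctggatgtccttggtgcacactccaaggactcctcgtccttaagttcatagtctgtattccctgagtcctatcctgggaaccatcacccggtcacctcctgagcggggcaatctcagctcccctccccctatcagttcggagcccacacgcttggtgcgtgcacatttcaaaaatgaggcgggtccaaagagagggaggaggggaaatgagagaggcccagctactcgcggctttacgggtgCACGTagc
Ldhb: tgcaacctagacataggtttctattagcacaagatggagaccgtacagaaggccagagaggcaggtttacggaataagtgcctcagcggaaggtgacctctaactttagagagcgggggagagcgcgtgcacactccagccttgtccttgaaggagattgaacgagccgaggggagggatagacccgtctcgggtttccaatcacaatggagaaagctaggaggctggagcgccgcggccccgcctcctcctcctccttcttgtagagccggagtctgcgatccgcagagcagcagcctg
Mdh1: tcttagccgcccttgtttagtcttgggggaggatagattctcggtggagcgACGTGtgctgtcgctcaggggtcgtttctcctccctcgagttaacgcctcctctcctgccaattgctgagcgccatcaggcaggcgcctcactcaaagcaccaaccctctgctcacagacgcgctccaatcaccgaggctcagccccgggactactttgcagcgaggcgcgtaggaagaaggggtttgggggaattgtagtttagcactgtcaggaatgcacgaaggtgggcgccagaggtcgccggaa
The letters searched were ACGTG, the core of the hypoxia response element, CACGTG, the E-box, which contains ACGTG, and CGCATGCG, a form of the NRF1 site, each on both strands. ACGTG stood in 21 of the 52 start windows of the listed genes (40.4%) and in 6447 of all 32851 windows of the same length (19.6%). The 52 windows belong to 35 of the 38 genes, and 14 of these genes had a window with ACGTG. Gapdh and Mdh1 each held 1 match and Ldhb held 0. CACGTG stood in 9.62% of the genes' windows and 7.15% of all windows, for Ldha, Ogdh and Pfkm, and CGCATGCG in 5.77% and 1.87%, for Ogdh and Pgam1. These matches describe the letters of the windows and say nothing of binding in these cells.

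The 38 genes held 925 of 91370 gene molecules, which is 1.01%. In cells 1 to 9 they held 3, 102, 131, 26, 426, 11, 17, 111 and 98 molecules. As a share of each cell's own gene molecules this was 0.294%, 1.07%, 1.22%, 0.216%, 1.61%, 0.324%, 0.237%, 0.842% and 1.25%, with a median of 0.842%. Cells 5, 9, 3, 2 and 8 were high and cells 6, 1, 7 and 4 were low. The exact 95% Poisson intervals of cells 4 (0.141% to 0.317%), 6 (0.162% to 0.580%) and 7 (0.138% to 0.380%) lay wholly below those of the 5 high cells, of which cell 8 was the lowest (0.693% to 1.01%). The interval of cell 1 (0.0606% to 0.859%) overlapped that of cell 8 and did not separate at its depth. These intervals, like all others here, cover counting error only.

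Low shares were not limited to shallow cells. Cell 4, with 12024 gene molecules, had a share of 0.216%, and cell 9, with 7827, had 1.25%. Leaving mitochondrially encoded, ribosomal protein and globin molecules out of the totals gave 0.370%, 0.495%, 0.497% and 0.284% in cells 1, 4, 6 and 7, against 1.07% to 1.85% in the 5 high cells. The split into high and low cells stayed, while the order within each changed.

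Several other measures moved with this share. Mitochondrially encoded molecules made up 7.25%, 9.37%, 7.23% and 4.31% of cells 2, 3, 5 and 9, and 19.9%, 22.6%, 34.2%, 13.5% and 16.5% of cells 1, 4, 6, 7 and 8. Neuron markers other than Meg3 reached 60.6, 34.5, 79.7 and 69.0 molecules per 10000 in cells 2, 3, 5 and 9, and 9.79, 6.65, 23.6, 22.3 and 14.4 in cells 1, 4, 6, 7 and 8. The 4 cells with the highest share of the 38 genes were thus the 4 with the lowest mitochondrial share and the highest level of these 11 neuron markers. Cell 8, the lowest of the 5 high cells above, did not follow. Its mitochondrial share (16.5%) was above that of low cell 7 (13.5%). Its neuron marker level (14.4) was below those of low cells 6 and 7 (23.6 and 22.3). Meg3 did not separate cells 2, 3, 5 and 9 from the others, with 61, 80, 69, 28, 41, 33, 75, 12 and 14 molecules in cells 1 to 9. With Meg3 included the neuron markers summed to 62, 138, 106, 36, 252, 41, 91, 31 and 68 molecules, so that low cell 7 had more than high cell 9. The 4 cells with the lowest share were the 4 in which Scgn had 0 molecules, with limits for a count of 0 (3 molecules over the cell's total) of 29.4, 2.50, 8.84 and 4.19 per 10000 in cells 1, 4, 6 and 7. Where found, Scgn stood at 1.04, 10.3, 0.378, 2.28 and 1.28 per 10000 in cells 2, 3, 5, 8 and 9. Only the level of cell 3 exceeded any of these limits, so the counts of 0 do not set the low cells apart from cells 2, 5, 8 and 9. The part of RNA quality, of cell type and of added cells in these differences was not tested.

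**Figure D1:**
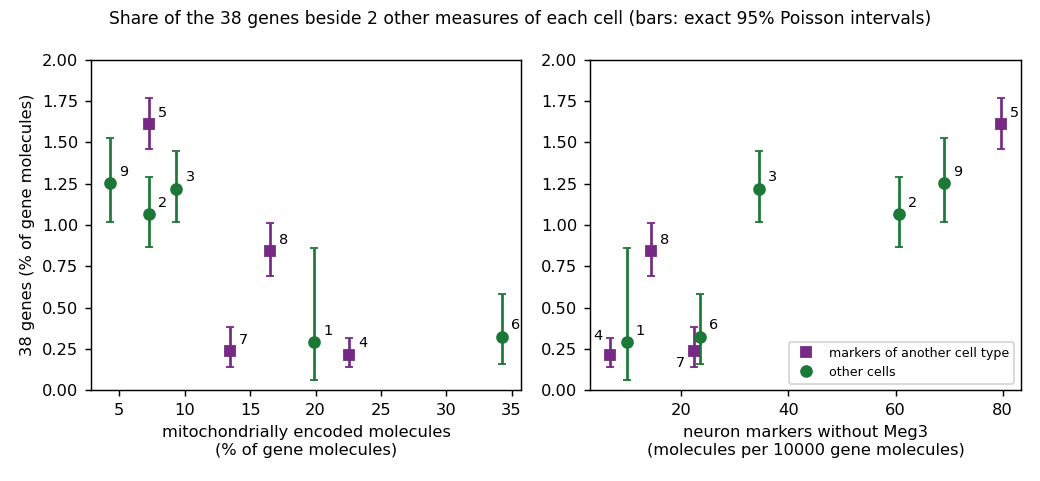
Share of the 38 genes in the gene molecules of each cell (vertical axis, %) against the share of mitochondrially encoded molecules (left, %) and against neuron markers other than Meg3 (right, molecules per 10000 gene molecules). Points are cells with their numbers, squares are the 4 cells with markers of another cell type, and bars are exact 95% Poisson intervals; cells 2, 3, 5 and 9 stand at the upper left on the left plot and the upper right on the right plot.

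Glycolysis genes made up the largest part of the 925 molecules, with 441 (47.7%), followed by the TCA and shuttle genes with 329 (35.6%) and the lactate and pyruvate genes with 155 (16.8%). In cells 1 to 9 the glycolysis genes had 1, 45, 60, 15, 215, 8, 8, 40 and 49 molecules. The TCA and shuttle genes had 2, 37, 49, 8, 147, 2, 7, 47 and 30 molecules, and the lactate and pyruvate genes had 0, 20, 22, 3, 64, 1, 2, 24 and 19. By their shares, all 3 groups were low in cells 4, 6 and 7 and high in cells 2, 3, 5 and 9. In cell 6 the glycolysis interval (0.102% to 0.465%) and the lactate and pyruvate interval (0.000746% to 0.164%) overlapped those of cells 2, 3 and 9. The median share of gene molecules was 0.304% for glycolysis (SD 0.257 over 9 cells), 0.357% for TCA and shuttle genes (SD 0.184) and 0.182% for lactate and pyruvate genes (SD 0.105). Without the 4 cells with markers of another type the medians were 0.470%, 0.383% and 0.205%.

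The balance between the listed TCA and glycolysis genes was read from their ratio. Pooled over cells there were 0.746 TCA and shuttle molecules for each glycolysis molecule (95% interval 0.645 to 0.862). This value depends on which genes were listed and is not a balance of the whole pathways. The 17 other TCA and shuttle genes described below held 177 molecules, and the 17 other glycolysis genes held 29. A ratio that includes them was not computed. The pooled ratio was 0.736 without the cells with markers of another type, and 0.690 with Gm5506, described below, counted as Eno1. Gene copies bear on the groups unequally. Gpi1, Aldoa, Gapdh, Pgk1, Pgam1, Eno1 and Pkm shared over 20% of their 40-base transcript stretches with other genes. Of the TCA and shuttle genes only Got2 did. The ratio was 0.822, 0.817, 0.684 and 0.612 in cells 2, 3, 5 and 9, and 1.18 in cell 8 (0.754 to 1.84). Cell 8, the cell with ependymal and astrocyte markers, was the only cell with over 100 member molecules in which the TCA genes outnumbered the glycolysis genes, and its interval overlapped those of cells 2, 3, 5 and 9. In cells 1, 4, 6 and 7 the ratio rested on 3 to 23 molecules and ranged from 0.25 to 2, with intervals too wide to place them.

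**Figure D2:**
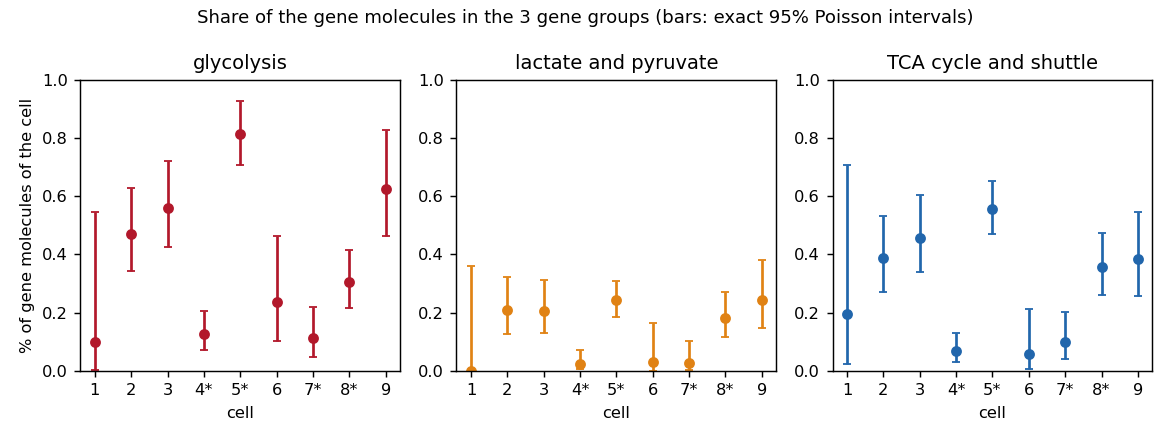
Share of the gene molecules (%) of each of the 9 cells that fell in glycolysis genes (left), lactate and pyruvate genes (middle) and TCA cycle and shuttle genes (right). Bars are exact 95% Poisson intervals and asterisks mark cells with markers of another cell type; cells 4, 6 and 7 are low in all 3 groups, and cell 5 is highest for glycolysis (0.812%) and for the TCA cycle (0.555%).

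The genes, chosen with earlier results of these data known, were detected widely. At least 1 molecule was found in 5 or more of the 9 cells for 25 of 38 genes, among them 11 of 16 glycolysis genes, 4 of 9 lactate and pyruvate genes and 10 of 13 TCA and shuttle genes. Over all 9745 genes with a molecule the share detected in 5 or more cells was 16.9% (1647 genes). The median count per gene over the 9 cells was 17 molecules for the 38 genes and 3 for all genes with a molecule, so the difference in detection goes with a difference in level. With 7 cells brought down to 7160 molecules each, 24.2 of the 38 genes (63.7%) were expected in at least 4 of the 7 cells, against 16.4% of all genes. At 2 or more molecules the count fell to 11 genes, against 6.36% of all genes with a molecule.

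The number of the 38 genes seen differed between cells, and it differed at a common depth too. The number of the 38 genes detected was 3, 30, 27, 17, 34, 7, 12, 31 and 24 in cells 1 to 9. Over all genes the numbers were 493, 3493, 3468, 2401, 5524, 1140, 2568, 4115 and 2815. At the common depth of 7160 molecules cells 2, 3, 5, 8 and 9 were expected to show 27.5, 24.4, 26.6, 25.4 and 23.5 of the genes, and cells 4 and 7 to show 11.9 and 12. The same depth gave 2986, 2807, 2914, 2896 and 2702.1 of all genes in cells 2, 3, 5, 8 and 9. In cells 4 and 7 it gave 1763.5 and 2568. The listed genes were thus 0.673% and 0.467% of the genes expected in cells 4 and 7, against 0.868% to 0.922% in cells 2, 3, 5, 8 and 9. Cell 5, the deepest, held 46.1% of the molecules of the 38 genes and 29.0% of all gene molecules, and it had the most molecules for 23 of them. Per 10000 gene molecules its lead was narrower, with the highest level for 8 genes, as many as in cell 9. The highest level fell in cell 8 for 6 genes, in cell 2 for 5 and in cell 3 for 4.

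**Figure D3:**
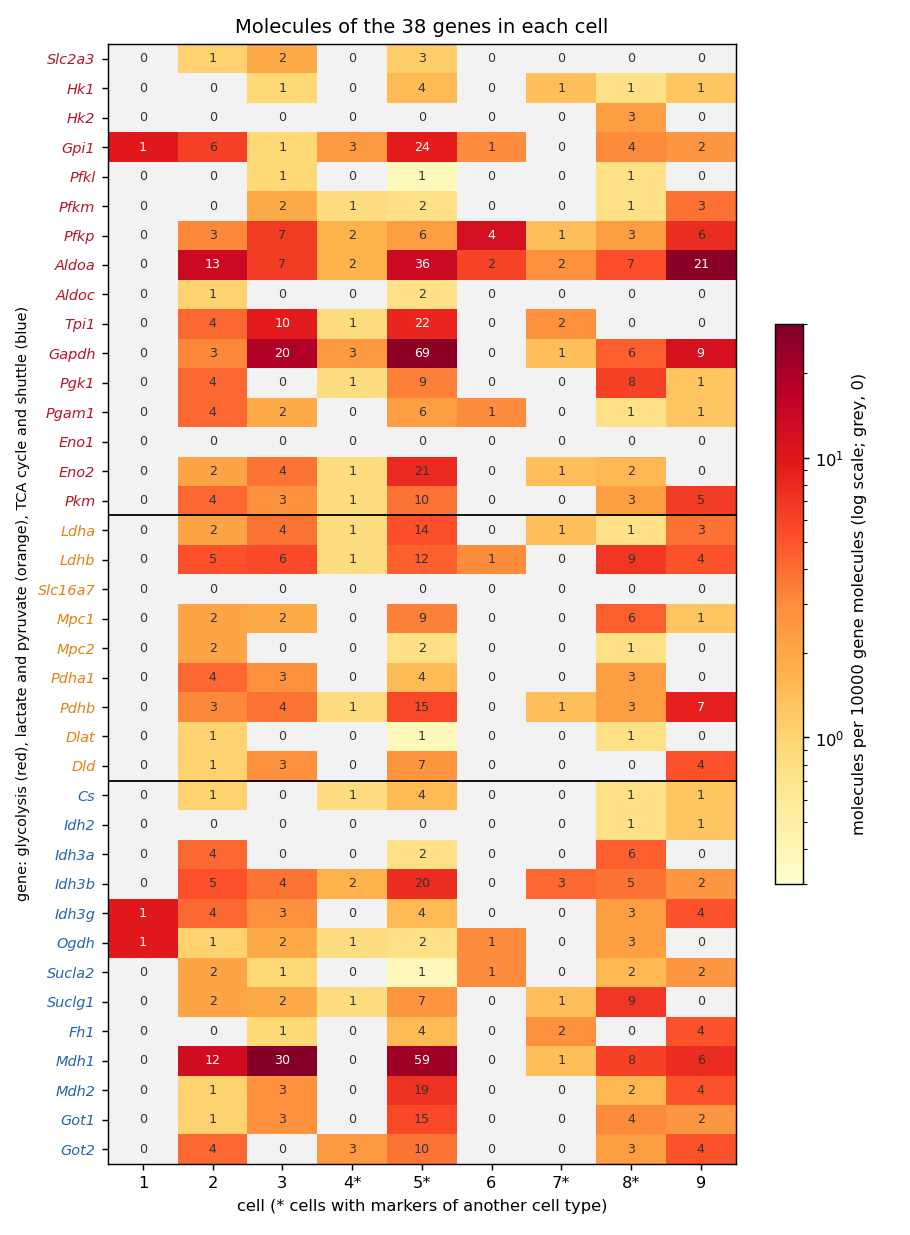
Molecules of each of the 38 genes (rows, by group) in each of the 9 cells (columns), with the count printed and the colour giving molecules per 10000 gene molecules on a log scale. Asterisks mark cells with markers of another cell type; Mdh1, Gapdh and Aldoa hold the most molecules (116, 111 and 90), with 59, 69 and 36 of them in cell 5, while Eno1 and Slc16a7 are at 0 throughout.

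Entry and trapping of glucose gave few molecules, and the phosphofructokinase step gave 44. Slc2a3, the main neuronal glucose transporter, had 6 molecules, found in cells 2, 3 and 5. Hk1, the brain hexokinase that traps glucose as glucose-6-phosphate, had 8 molecules in 5 cells, and Hk2, a hexokinase of muscle and proliferating cells, had 3, all in cell 8. Among the 3 phosphofructokinase genes, whose enzyme is the main control point of the pathway, Pfkp had 32 molecules, Pfkm 9 and Pfkl 3. Pfkp, the platelet-type subunit, had 0, 3, 7, 2, 6, 4, 1, 3 and 6 molecules in cells 1 to 9, with a highest level of 11.8 per 10000 in cell 6. It was 1 of the 3 genes found in 8 cells, beside Gpi1 and Aldoa.

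Gpi1, which turns glucose-6-phosphate into fructose-6-phosphate, had 1, 6, 1, 3, 24, 1, 0, 4 and 2 molecules in cells 1 to 9. Its count was far higher in cell 5 than elsewhere, while its level there, 9.07 per 10000 (5.81 to 13.5), overlapped that of cell 2, 6.27 (2.30 to 13.6). Gpi1 lies on chromosome 7 at 34201330 to 34230336, minus strand, in GENCODE M21 on mm10.

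The middle of glycolysis held its most abundant genes. Aldoa, the aldolase that splits fructose bisphosphate, had 0, 13, 7, 2, 36, 2, 2, 7 and 21 molecules in cells 1 to 9. Its level was highest in cell 9, at 26.8 per 10000 (16.6 to 41.0), followed by 13.6 in cells 2 (7.23 to 23.2) and 5 (9.53 to 18.8), whose intervals met that of cell 9. Aldoc, the aldolase that marks astrocytes and Purkinje cells in brain, had 3 molecules, in cells 2 and 5. It had 0 in cell 8, which held 4 of the 7 astrocyte markers. A count of 0 in cell 8 allows up to 2.28 per 10000, above the Aldoc levels of 1.04 and 0.756 in cells 2 and 5, so no difference was detectable. Tpi1, which interconverts the triose phosphates, had 0, 4, 10, 1, 22, 0, 2, 0 and 0 molecules. It was high in cells 3 and 5, at 9.32 and 8.31 per 10000, and at 0 in cells 8 and 9, where a count of 0 allows up to 2.28 and 3.83 per 10000.

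Gapdh, which oxidises glyceraldehyde-3-phosphate and makes the NADH of glycolysis, had 0, 3, 20, 3, 69, 0, 1, 6 and 9 molecules in cells 1 to 9. Cells 5 and 3 were high, at 26.1 (20.3 to 33.0) and 18.6 (11.4 to 28.8) per 10000, and cell 2, a cell of similar total depth to cell 3, had 3.13 (0.646 to 9.16). The intervals of cells 2 and 3 did not overlap, so this gene, often used as a constant reference, differed between these 2 cells beyond counting error. Gapdh lies on chromosome 6 at 125161715 to 125166467, minus strand, and 83.3% of the 40-base stretches of its transcript recur in transcripts of other genes, so its counts are uncertain.

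Pgk1, which makes the first ATP of the pathway, had 0, 4, 0, 1, 9, 0, 0, 8 and 1 molecules in cells 1 to 9. Its level was highest in cell 8, at 6.07 per 10000 (2.62 to 11.96), and it was at 0 in cell 3, where Gapdh and Tpi1 were high. Pgam1, the phosphoglycerate mutase of brain, had 15 molecules in 6 cells. Pkm, the pyruvate kinase that ends the pathway, had 0, 4, 3, 1, 10, 0, 0, 3 and 5 molecules, with its highest level in cell 9 (6.39 per 10000, 2.07 to 14.9). The 2 splice forms of Pkm share 1 row and cannot be told apart.

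The enolase step depended on how gene copies were counted. Eno2, the neuronal enolase, had 0, 2, 4, 1, 21, 0, 1, 2 and 0 molecules in cells 1 to 9, with 7.93 per 10000 in cell 5 (4.91 to 12.1). Eno1, the general enolase, was listed at 0 in all 9 cells, although other enzymes of the pathway had up to 111 molecules. Gm5506, a gene whose RefSeq name is Eno1b and which shares 73.2% of the 40-base stretches of the Eno1 transcript, had 36 molecules in 1 of its 2 rows, with 0, 2, 5, 4, 21, 0, 0, 3 and 1 in cells 1 to 9. That row stands in the table between Eno1 and Rere, a pair of genes of chromosome 4, and the other Gm5506 row had 1 molecule. Gm5506 was singled out after its values were seen, and whether its molecules came from Eno1 was not tested. Counted as Eno1 they would bring the glycolysis genes to 477 molecules and make Eno2 and Eno1 equal in cell 5, at 21 molecules each.

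Lactate dehydrogenase was present in both its subunits. Ldhb, the heart-type subunit linked to use of lactate, had 0, 5, 6, 1, 12, 1, 0, 9 and 4 molecules in cells 1 to 9. Ldha, the muscle-type subunit linked to making lactate, had 0, 2, 4, 1, 14, 0, 1, 1 and 3 molecules. Ldhb exceeded Ldha in cells 2, 3, 6, 8 and 9, and Ldha exceeded Ldhb in cells 5 and 7, by 2 molecules and 1 molecule. Pooled, Ldhb made up 38 of 64 molecules, or 59.4% (exact Clopper-Pearson 95% interval 46.4 to 71.5), an interval that includes an even split. Per kilobase of the longest coding transcript the Ldhb share was 67.0%. In cell 8 it was 9 of 10 (90%, 55.5 to 99.7), and in cell 5, the cell with oligodendrocyte markers, 12 of 26 (46.2%, 26.6 to 66.6). These intervals overlap.

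Slc16a7, the high-affinity monocarboxylate transporter of neurons, had 0 molecules in all 9 cells, which in the deepest cell allows up to 1.13 per 10000. Mpc1, a subunit of the mitochondrial pyruvate carrier, had 0, 2, 2, 0, 9, 0, 0, 6 and 1 molecules in cells 1 to 9, with its highest level in cell 8, and its partner Mpc2 had 5 in all. The pyruvate dehydrogenase complex was led by Pdhb, a subunit of its E1 enzyme, with 0, 3, 4, 1, 15, 0, 1, 3 and 7 molecules. Pdhb had its highest level in cell 9, at 8.94 per 10000 (3.60 to 18.4). The other E1 subunit, Pdha1, had 14 molecules in 4 cells, Dld (E3) had 15 in 4 cells and Dlat (E2) had 3. Per kilobase and 10000 pooled gene molecules the level was 2.46 for Pdhb, 0.645 for Dld, 0.538 for Pdha1 and 0.0814 for Dlat, so parts of 1 complex differed widely in captured RNA.

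Among the TCA cycle genes, Cs, the citrate synthase that opens the cycle, had 8 molecules in 5 cells. The 3 subunits of the NAD-dependent isocitrate dehydrogenase had 41 molecules (Idh3b), 19 (Idh3g) and 12 (Idh3a). Idh3b had 0, 5, 4, 2, 20, 0, 3, 5 and 2 molecules in cells 1 to 9 and was found in 7 cells, with its highest level of 7.56 per 10000 (4.62 to 11.7) in cell 5. Per kilobase and 10000 pooled gene molecules the catalytic subunit Idh3a stood at 0.509, below Idh3b at 2.78 and Idh3g at 1.56. Idh2, the NADP-dependent mitochondrial form, had 2 molecules, in cells 8 and 9.

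Ogdh, the E1 enzyme of the 2-oxoglutarate dehydrogenase complex, had 11 molecules over 7 cells, no cell holding more than 3. Suclg1, the shared subunit of succinyl-CoA ligase, had 0, 2, 2, 1, 7, 0, 1, 9 and 0 molecules in cells 1 to 9, with 6.83 per 10000 (3.12 to 13.0) in cell 8 and 2.64 (1.06 to 5.45) in cell 5. Sucla2, the ATP-forming subunit of the same enzyme, had 9 molecules over 6 cells. Fh1, the fumarase, had 11 molecules in cells 3, 5, 7 and 9.

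Mdh1, the cytosolic malate dehydrogenase of the malate-aspartate shuttle, was the most abundant of the 38 genes in molecules. It had 0, 12, 30, 0, 59, 0, 1, 8 and 6 molecules in cells 1 to 9. Cells 3 and 5 were high, at 28.0 (18.9 to 39.9) and 22.3 (17.0 to 28.8) per 10000, and their intervals lay above those of cell 8, 6.07 (2.62 to 11.96), and cell 9, 7.67 (2.81 to 16.7). In cell 4 Mdh1 was at 0, which allows up to 2.50 per 10000. Cell 4 was of similar total depth to cell 3, but globin and mitochondrially encoded molecules made up 30.3% and 22.6% of it. Mdh1 lies on chromosome 11 at 21556787 to 21572367, minus strand, and overlaps exons of Wdpcp on the opposite strand.

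The mitochondrial partner of Mdh1 and the aspartate aminotransferases had fewer molecules. Mdh2 had 0, 1, 3, 0, 19, 0, 0, 2 and 4 molecules in cells 1 to 9. Got1, the cytosolic aminotransferase of the shuttle, had 0, 1, 3, 0, 15, 0, 0, 4 and 2, and Got2, the mitochondrial one, had 0, 4, 0, 3, 10, 0, 0, 3 and 4. Both malate dehydrogenases and Got1 were at 0 in cells 1, 4 and 6, and Got2 had 3 molecules in cell 4. Per kilobase and 10000 pooled gene molecules the 3 highest of the 38 genes were Gapdh at 8.56, Aldoa at 6.36 and Mdh1 at 5.98, followed by Ldhb at 3.19.

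Each share was set against an even split between 1 isoform and the rest of its family, which for Pfkp is the other 2 genes together. In 4 of the 8 families compared, and in the enolases by the deposited symbols alone, the interval left out this even split. Mdh2 made up 29 of 145 malate dehydrogenase molecules (20%, 13.8 to 27.4), and 9.09%, 24.4% and 40% of those in cells 3, 5 and 9. Aldoc made up 3 of 93 aldolase molecules (3.23%, 0.670 to 9.14), Mpc2 5 of 25 (20%, 6.83 to 40.7) and Pfkp 32 of 44 (72.7%, 57.2 to 85.0). Pfkp outnumbered the other 2 phosphofructokinase genes together in each of the 8 cells in which the family was found. In the enolase family Eno2 was 31 of 31 (88.8% to 100%) by the deposited symbols, and 31 of 67 (46.3%, 34.0 to 58.9) with Gm5506 counted as Eno1. Got2 made up 24 of 49 (49.0%, 34.4 to 63.7), and Hk2 made up 3 of 11 (27.3%, 6.02 to 61.0). Pooling weights the deepest cell most. Without the 4 cells with markers of another type the shares were 64% for Ldhb (16 of 25 molecules), 14.3% for Mdh2 (8 of 56), 76.9% for Pfkp (20 of 26), 57.1% for Got2 (8 of 14), 2.27% for Aldoc (1 of 44) and 0 of 2 for Hk2. For Mpc2 the share was then 2 of 7 (28.6%, 3.67 to 71.0), an interval that includes an even split.

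**Figure D4:**
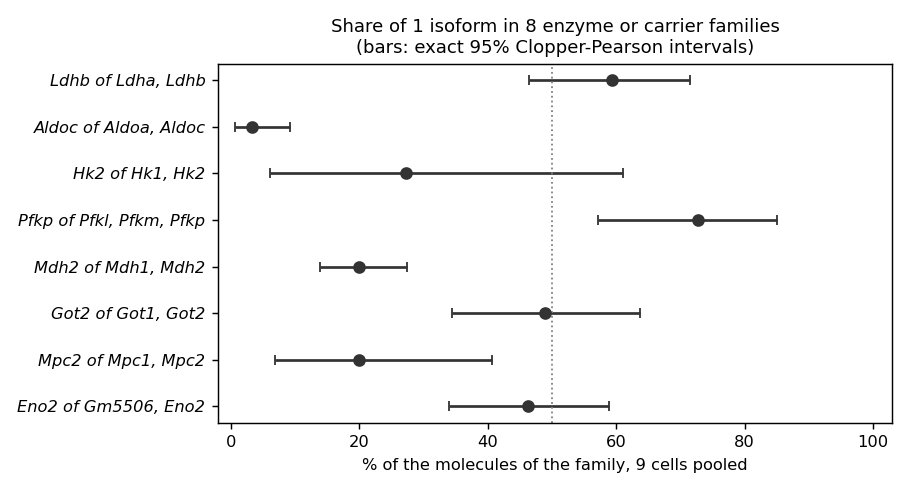
Share of 1 isoform in the molecules of its enzyme or carrier family (horizontal axis, %), pooled over the 9 cells, with exact 95% Clopper-Pearson intervals. The dotted line marks an even split between that isoform and the rest of its family. Aldoc (3.23%), Mdh2 (20%), Mpc2 (20%) and Pfkp (72.7%) lie off the line, and the enolase family is drawn with Gm5506 counted as Eno1 (46.3%).

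Transporters of glucose and lactate were found in few cells. Slc2a1, the glucose transporter of brain endothelium and glia, was not among the 38 genes and had 19 molecules. Cells 4, 7 and 8 held 6, 8 and 5 of them, and the other 6 cells held 0. Its level was 4.99 (1.83 to 10.9), 11.2 (4.82 to 22.0) and 3.79 (1.23 to 8.86) per 10000 in these cells. Slc16a1, the lactate transporter of the same cell types, had 3, 3 and 5 molecules in cells 4, 7 and 8 and 0 elsewhere. These are the cells with endothelial markers (118 molecules in cell 4, 54 in cell 7) and with ependymal and astrocyte markers (91 and 29 in cell 8), while cell 5, with oligodendrocyte markers, had 0 of both. Slc2a3 had 1, 2 and 3 molecules in cells 2, 3 and 5, at 1.04, 1.86 and 1.13 per 10000, and 0 in the cells with Slc2a1. A count of 0 there allows up to 2.50, 4.19 and 2.28 per 10000 in cells 4, 7 and 8, so no difference in Slc2a3 was detectable at this depth. Slc16a3, a lactate exporter of glycolytic cells, had 0 in all 9. Bsg, the chaperone that brings these lactate transporters to the membrane and is abundant in brain endothelium, had 40 molecules, with 0, 0, 4, 10, 8, 0, 8, 3 and 7 in cells 1 to 9. The part of the other cell types in these counts was not tested.

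**Figure D5:**
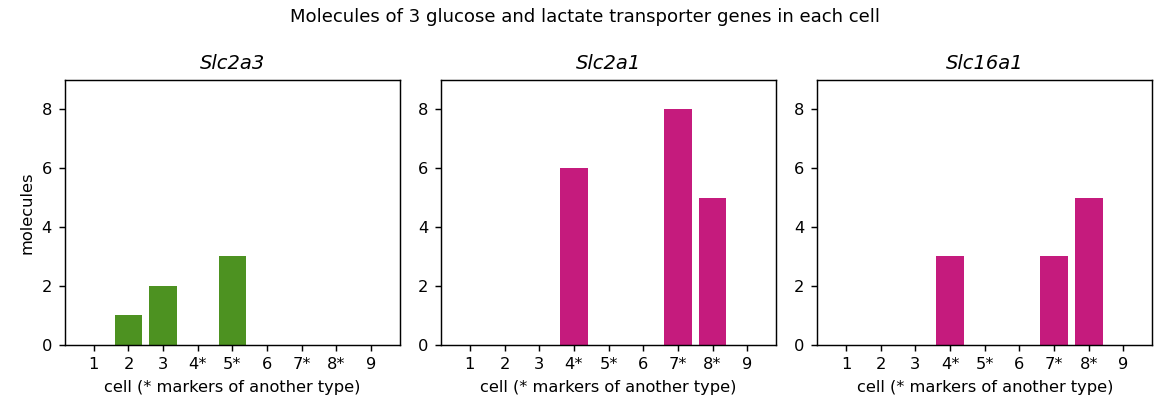
Molecules of the glucose transporter genes Slc2a3 and Slc2a1 and of the lactate transporter gene Slc16a1 (vertical axis) in each of the 9 cells (horizontal axis, asterisks for cells with markers of another type). Slc2a3 appears in cells 2, 3 and 5, and Slc2a1 and Slc16a1 appear in cells 4, 7 and 8, with up to 8 molecules in a cell.

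Further genes of these pathways, listed by function, were sparser than the 38 genes. Of 17 other glycolysis genes, 0 were found in 5 or more cells, 5 in 1 to 4 cells, and 12 had no molecule. Of 14 other lactate and pyruvate genes the counts were 1, 7 and 6, of 17 other TCA and shuttle genes 4, 11 and 2, and of 7 pentose phosphate genes 0, 5 and 2. Over all 23528 gene symbols the same counts were 1647, 8098 and 13783. The lists of further genes hold many isoforms known from liver, muscle or testis. Succinate dehydrogenase, which joins the cycle to the respiratory chain, gave 35 molecules for Sdha, 34 for Sdhb, 14 for Sdhc and 15 for Sdhd. Sdha had 0, 0, 4, 2, 17, 2, 1, 2 and 7 molecules in cells 1 to 9, and Sdhc was found only in cells 5 and 8, with 9 and 5.

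The aspartate-glutamate carriers of the shuttle were unequal, with 25 molecules for Slc25a12, the brain form, and 1 for Slc25a13, the liver form. Slc25a12 had 9, 5, 10 and 1 molecules in cells 2, 3, 5 and 8 and 0 in the others. Slc25a11, the oxoglutarate carrier of the shuttle, had 16 molecules over 6 cells. Taldo1, of the pentose phosphate pathway, had 20 molecules, 11 of them in cell 5.

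Single cells that stood apart from the rest were counted for each gene. By Dixon's ratio at its 95% critical value for 9 values, 1 cell stood apart for 5 of the 27 genes with at least 9 molecules (18.5%), namely Pfkm, Aldoa, Eno2, Ogdh and Suclg1. The same held for 654 of 2062 genes in all (31.7%). For Ogdh the cell apart was cell 1, on 1 molecule in the shallowest cell, and for Pfkm it was cell 9, on 3 molecules.

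Gene copies limit some of these values. Of the 38 genes, 12 shared more than 20% of the 40-base stretches of their longest coding transcript with a transcript of another gene, led by Gapdh (83.3%), Eno1 (74.8%), Pgk1 (68.1%) and Got2 (52.5%), and 17 shared none, among them Mdh1, Mdh2, Got1 and Idh3b. Exons of 13 genes overlapped a gene on the opposite strand, and without a known strand setting reads of such pairs cannot be told apart.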

How the data were processed

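The deposited table holds raw whole-number counts per gene and cell, which the deposit terms molecules. Per the submitters' processing notes, Bowtie and the mm10 genome were used; the Bowtie version, the collapsing of duplicate reads and the strand setting are not given in the sources used here. Per the labels' protocols, spike-in RNAs were added and cDNA was amplified for 21 PCR cycles. The 92 spike-in rows (1962 to 2184 molecules in 8 cells, 614 in cell 9, which was sequenced in another lane per the column name) were left out of the totals, leaving 24378 gene rows. Columns were assigned by the cell number in their names. A symbol with numbered loci took its largest row in each cell; 0 of the 38 genes had such rows.

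Levels were scaled to 10000 gene molecules in each cell. Exact 95% Poisson and Clopper-Pearson intervals were computed with scipy 1.17.1. Detection at a common depth was the hypergeometric expectation, and this step and the intervals were tested on simulated data. No doublet caller was run on so few cells. Lengths and coordinates are from GENCODE M21. If each molecule was counted once whatever its length, counts compare genes without the scaling per kilobase, so both are given. The genes, lists and alternatives were chosen with earlier results of these data known. Every one of the 38 genes was named, those with at least 20 molecules by cell, and of the further pathway genes those with at least 10 molecules together with Slc2a1, Slc16a1 and Slc16a3. Not every further gene past that minimum is reported here.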

Additional observations from a re-analysis of the deposited data

Results flagged for a closer look

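Of 33 measures examined with the 9 cells as values (levels of the genes named by cell, the group shares and the TCA to glycolysis ratio), 7 had 1 cell whose distance from its nearest neighbour exceeded Dixon's 95% critical value. Chance alone marks about 1 in 20 sets of normally distributed values. That rate does not carry over to sparse counts scaled by unequal totals, and 31.7% of the 2062 genes with at least 9 molecules were marked here. Among those of the 38 genes with at least 20 molecules the marked measures were Aldoa in cell 9 (26.8 molecules per 10000, at a ratio that exceeded the critical value only marginally), Eno2 in cell 5 (7.93) and Suclg1 in cell 8 (6.83). Among the further pathway genes they were Slc2a1 in cell 7 (11.2), Sdhd in cell 9 (7.67), Slc25a12 in cell 2 (9.40) and Slc25a11 in cell 1 (9.79). The value for Slc25a11 is 1 molecule in the shallowest cell. Those of Aldoa and Eno2 rest on 21 molecules each, Suclg1 and Slc25a12 on 9, Slc2a1 on 8 and Sdhd on 6. In cells 5, 7 and 8 markers of another cell type were present, and their part in Eno2, Slc2a1 and Suclg1 was not tested.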

How the results depend on the processing

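The count of 25 genes in at least 5 cells was 11 at 2 or more molecules, 10 at 3 or more, and 16 to 25 with 1 cell left out, the lowest without cell 5. Without the cells with other markers, 18 of the 38 genes were found in at least 3 of the remaining 5 cells. The Hk2 share of 27.3% was 0 without the cells with other markers and 0 to 42.9% with 1 cell left out, the lowest without cell 8, which held all 3 of its molecules, and the highest without cell 5. The Got2 share of 49.0% crossed an even split at 54.2% with equal weight for each cell, at 57.1% without the cells with other markers, and over 45.5% to 58.3% with 1 cell left out (52.2% without cell 3, 58.3% without cell 5). The Eno2 share of 100% was 46.3% with Gm5506 counted as Eno1, a setting chosen after seeing the data. For the rest the cause was not tested. Over the 13 results, the other 188 alternative values stayed within 1 SD over cells, the 95% interval or, for the count of genes, 1.5 times, but some shares moved by over 1.5 times. The lactate and pyruvate median of 0.182% was 0.106% without any 1 of cells 2, 3, 5 and 9, 0.117% without cell 8 and 0.114% without Ldhb. The TCA median of 0.357% was 0.196% without Mdh1. The glycolysis median of 0.304% was 0.470% without the cells with other markers or the 2 shallowest cells and 0.483% with molecules pooled. The Aldoc share of 3.23% was 1.82% without cell 5 and per kilobase. The scaling per kilobase was run for the ratio and the shares and not for the group medians. No paired analysis was possible because the 9 cells form 1 group. Depth limits cells 1 and 6 most: their few gene molecules leave most of the 38 genes undetectable at the levels seen elsewhere.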
